A study of Mus musculus with 20 samples.

Results

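Complement is a set of plasma and tissue proteins that mark particles for uptake and lysis. In the classical pathway C1q binds a target and leads to cleavage of C4 and C2, in the alternative pathway factor D cleaves factor B, and both routes end in cleavage of C3. Most complement proteins of plasma come from the liver, the C1q chains are made largely by macrophages, factor D (adipsin) is a product of fat cells, and several of the genes respond to interferons in many cell types. The genes described here were C1qa, C1qb, C1qc, C2, C3, C4b, Cfb, Cfd and Serping1, 9 of the 30139 genes or transcripts on the array, and they were chosen by name. They were covered by 11 of 39429 probes, with 2 probes each for C3 and Serping1 and 1 for each of the others.

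The study measured RNA on 20 arrays to find genes that rise in several tissues of mice lacking Irgm1, an interferon-induced GTPase. Whole salivary gland came from 4 mice labelled Irgm1-/- (all female, 9 weeks old) and 4 wild type mice (all female, 6 or 7 weeks old). Whole small intestine came from 3 mice labelled Irgm1-/- (2 male and 1 female, 6 or 8 weeks old) and 3 wild type mice (all female, 6 or 8 weeks old), and isolated colonic macrophages came from mice of the same number, sexes and ages. All mice had a C57BL/6 background. A number given with the deposited files, taken here as an animal number, links intestine and macrophages to the same 6 animals. Age and genotype cannot be told apart in salivary gland, and sex is unevenly spread over the genotypes in the other samples. Each value is a level, the log2 intensity relative to the 75th percentile of that array, and differences are levels of Irgm1-/- minus wild type.

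The share of probes well above background was 25.2 to 48.7% on the salivary gland arrays, 52.6 to 62.2% in intestine and 57.1 to 74.4% in macrophages. Irgm1 itself went against its label. Its level was 2.63 ± 0.23 (SE) higher on the salivary gland arrays labelled Irgm1-/-, 1.38 ± 0.17 higher in intestine and 0.80 ± 0.34 higher in macrophages (adjusted p = 0.000555, 0.0764 and 0.541, limma). Whether its 2 probes lie outside the deleted part was not stated, and the groups below are therefore called the arrays labelled Irgm1-/-. The arrays labelled macrophages did not stand above the whole tissues in macrophage markers. The mean level over 15 resident macrophage genes was -4.41 to -2.12 on the 6 macrophage arrays, -3.23 to -2.17 in salivary gland and -4.09 to -3.07 in intestine. Of these 15 genes 11 were well above background on all macrophage arrays, 6 on all salivary gland arrays and 14 on all intestine arrays. The means include genes at background, and the lowest level read as above background differed between tissues. Of the 15 genes 13 were tested in macrophages, all but Timd4 and Mrc1. Timd4 was not well above background on any macrophage array. Mrc1 was above it on 0 of 3 macrophage arrays labelled Irgm1-/- and 2 of 3 wild type arrays. The 3 wild type macrophage arrays also held pancreatic acinar transcripts, with a mean list level of 1.87 to 3.88 against -5.21 to -4.12 on the arrays labelled Irgm1-/-. Because these are bulk samples, fewer cells of a type and less RNA per cell cannot be told apart.

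The probes behind the results are shown for 5 genes as the array files give them, since every level is the brightness of such a 60-base sequence. No base is marked by capitals in these.
C1qa: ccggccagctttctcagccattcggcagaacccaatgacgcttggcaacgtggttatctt
C1qb: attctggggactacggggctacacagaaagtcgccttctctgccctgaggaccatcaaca
Cfb: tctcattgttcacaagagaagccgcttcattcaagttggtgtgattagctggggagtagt
C3 (brighter probe): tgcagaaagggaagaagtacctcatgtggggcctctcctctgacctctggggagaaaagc
Serping1 (dimmer probe): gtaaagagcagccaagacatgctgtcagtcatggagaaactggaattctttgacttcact

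C1qb, C1qc and C1qa lie side by side on chromosome 4, and Cfb and C2 are neighbours on chromosome 17, in the order of RefSeq's mouse genes. C4b is also on chromosome 17, between Tnxb and Cyp21a1, which are described below with the neighbours of C2 and Cfb. C3 lies on the same chromosome between Tnfsf14 and Trip10. Cfd is on chromosome 10 and Serping1 on chromosome 2. RefSeq's promoter table (GRCm38.p6) held 4 of the 9 genes (C1qb, C1qc, C3 and Cfd). The 250 bases before the start of C1qb (chr4:136886201-136886450, minus strand) and C1qc (chr4:136892915-136893164, minus strand) are printed because these 2 neighbours moved together, with the PU box letters GAGGAA, or their reverse complement, in capitals.
C1qb promoter: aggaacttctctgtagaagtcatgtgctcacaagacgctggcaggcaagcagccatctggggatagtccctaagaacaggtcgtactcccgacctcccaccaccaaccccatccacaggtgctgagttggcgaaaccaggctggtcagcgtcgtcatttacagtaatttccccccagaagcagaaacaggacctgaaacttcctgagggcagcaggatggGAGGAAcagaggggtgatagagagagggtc
C1qc promoter: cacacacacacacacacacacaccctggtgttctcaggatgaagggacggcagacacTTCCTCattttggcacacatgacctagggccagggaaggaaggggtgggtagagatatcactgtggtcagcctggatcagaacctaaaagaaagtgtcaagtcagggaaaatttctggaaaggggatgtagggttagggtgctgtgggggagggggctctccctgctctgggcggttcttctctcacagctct
The match lies 30 bases before the start in C1qb and 193 bases before it in C1qc, on the opposite strand. GAGGAA on either strand is found in 23.3% of all 32851 such windows. The interferon-stimulated response element core (GAAA, then any 2 bases, then GAAA again, in 2.98% of windows) and the gamma-activated sequence core TTCNNNGAA (7.02%) had no match in the windows of C1qb, C1qc, C3 or Cfd. A match here is a description of letters and not a binding site.

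In salivary gland 8 of the 9 genes rose on the arrays labelled Irgm1-/-: all 3 C1q chains, C4b, C2, C3, Cfb and Serping1. Cfd did not pass the test. Among all 11458 genes tested in this tissue, 2.16% rose and 2.34% changed in either direction at an adjusted p under 0.05. The median difference was 1.88 for the 9 genes and 0.02 for all genes.

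Cfb, the factor B that carries the protease of the alternative pathway, had the largest difference of the 9. Its levels were -0.20, -0.84, -1.46 and -1.56 on the arrays labelled Irgm1-/- and -4.22, -4.54, -4.20 and -4.72 in wild type, where 2 of 4 arrays were well above background. The groups were far apart, by 3.40 ± 0.29 (SE, 10.6-fold, adjusted p = 0.000555). C2, the neighbouring gene and the protease of the classical pathway, had levels of 0.60, -0.27, -0.64 and -0.45 against -2.52, -2.82, -2.28 and -2.57. The lowest array labelled Irgm1-/- lay above every wild type array, and the difference was 2.36 ± 0.26 (adjusted p = 0.00169). Of all genes tested in the gland, 10.1% were higher in this way without overlap, as were 8 of the 9 members.

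C4b supplies the fourth component, which joins C2 in the classical convertase. Its levels were -1.01, -2.06, -2.18 and -2.40 against -4.32, -4.80, -4.12 and -4.74, with 3 of 4 wild type arrays well above background. The difference was 2.58 ± 0.30 (adjusted p = 0.00232). C4a, the near-identical neighbour of C4b, was matched to no probe of its own, so the signal of the C4b probe may include it. C3, on which all pathways converge, read 2.43, 1.96, 1.42 and 1.56 against 0.10, 0.01, 0.12 and -0.38 with its brighter probe. All 4 arrays labelled Irgm1-/- were above all 4 wild type arrays, by 1.88 ± 0.23 (adjusted p = 0.00295), and the other C3 probe gave 2.09 ± 0.24 (adjusted p = 0.00219).

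The C1q chains, which together form the recognition molecule, rose by 1.31 to 1.66. C1qa had levels of 2.01, 2.01, 0.84 and 1.19 against -0.14, -0.27, 0.18 and -0.33, a difference of 1.66 ± 0.28 (adjusted p = 0.0181). C1qb read 1.58, 1.49, 0.45 and 0.59 against -0.21, -0.34, -0.19 and -0.41 (1.31 ± 0.26, adjusted p = 0.0445), and C1qc 0.63, 0.16, -0.44 and -0.46 against -1.38, -1.60, -1.42 and -1.90 (1.54 ± 0.25, adjusted p = 0.0158). In each chain replicates 1 and 2, which share a slide, were the highest of the arrays labelled Irgm1-/-. Within the first and the second slide the C1qa difference was 2.22 and 1.09, and the Cfb difference 3.85 and 2.95. On both slides each of the 8 genes that rose was higher on the arrays labelled Irgm1-/-, the smallest within-slide value being 0.82 for C1qb.

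Serping1 encodes the C1 inhibitor, which stops C1r and C1s. Its brighter probe read 2.20, 1.68, 1.18 and 1.27 against 0.45, 0.21, 0.30 and 0.00, a difference of 1.34 ± 0.23 (adjusted p = 0.0183), and its dimmer probe gave 1.69 ± 0.26 (adjusted p = 0.00978). The genotypes did not overlap with either probe. Cfd read -0.91, -4.12, 1.53 and -2.08 against -3.54, -3.87, -0.71 and -4.98, and the groups overlapped over a wide range (1.88 ± 1.25, adjusted p = 0.392, 95% interval -0.96 to 4.71). The highest array of each genotype, replicate 3, was also the highest in the mean level of 10 adipocyte genes, at -2.33 and -3.98, while the others lay between -5.54 and -4.24. Their part in the Cfd values was not tested.

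The calls in salivary gland fell into 2 sets when the processing was varied. Cfb, C2, C4b and C3 kept an adjusted p under 0.05 in all 21 alternatives run for each. The difference ran from 2.75 to 3.58 for Cfb, 2.09 to 2.51 for C2, 1.67 to 2.75 for C4b and 1.68 to 2.02 for C3. C1qa was called in 15 of 21, C1qc in 15, Serping1 in 15 and C1qb in 8, with the difference above 0 throughout. The count of genes that rose dropped from 8 to 4 without replicate 2 of the arrays labelled Irgm1-/-, without wild type replicate 2 and without wild type replicate 4, where the C1q chains and Serping1 missed the threshold. Without wild type replicate 1, C1qa and C1qb missed it (adjusted p = 0.0631 and 0.105). Without wild type replicate 3, C1qb and Serping1 missed it (adjusted p = 0.0928 and 0.0508), and without replicate 1 labelled Irgm1-/- C1qb did (adjusted p = 0.0604).

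**Figure D1:**
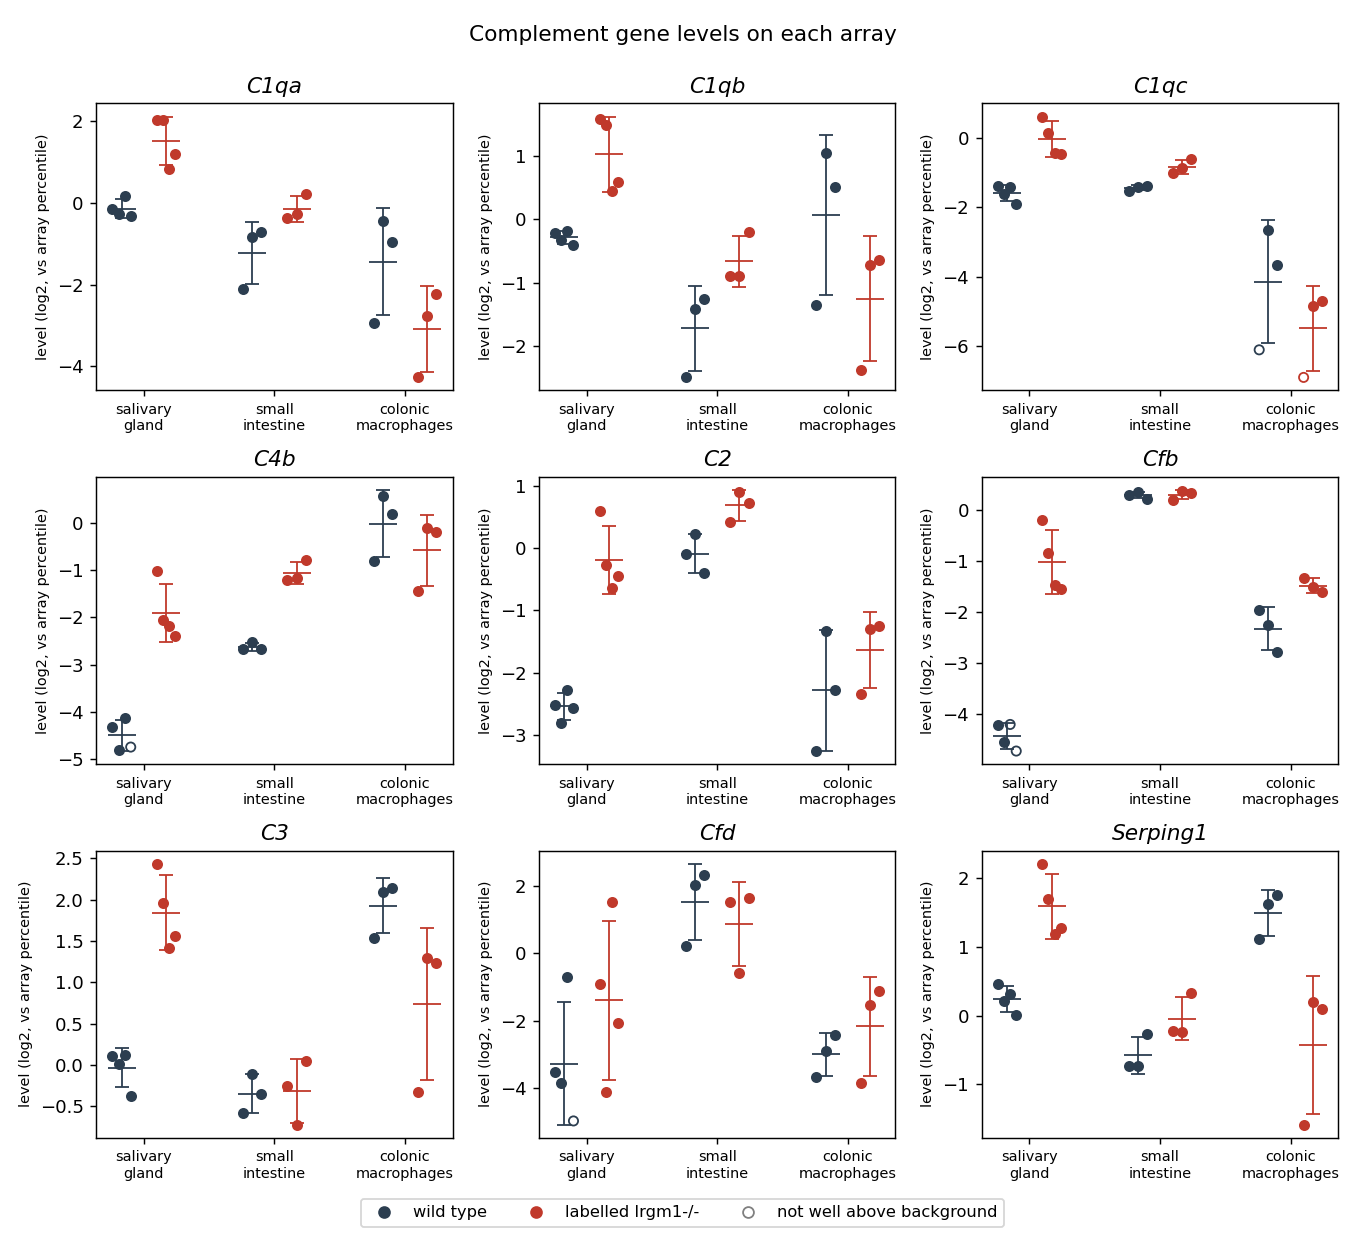
Level of each gene (log2 intensity relative to the array's percentile) on each of the 20 arrays, by tissue and genotype; bars are mean and SD over 4 or 3 arrays, and open circles were not well above background. In salivary gland the genotypes are apart in 8 panels and overlap for Cfd, and in intestine the Cfb points coincide.

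In small intestine C4b was the gene called, and Cfb and C3 showed almost no difference. Of 17982 genes tested 0.189% were called, all of them higher on the arrays labelled Irgm1-/-. C4b read -1.21, -1.16 and -0.79 against -2.67, -2.53 and -2.67, with no overlap and a difference of 1.57 ± 0.16 (adjusted p = 0.0373), 1.46 and 1.63 within the first and the second slide. That call was lost without any 1 of the 6 arrays, where the difference was 1.44 to 1.65, and with the replicate number as a block (adjusted p = 0.214), a fit that called 0.00556% of all genes.

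Cfb had levels of 0.20, 0.37 and 0.34 on the arrays labelled Irgm1-/- and 0.30, 0.35 and 0.22 in wild type. The groups overlapped within a narrow range, and the 95% interval of the difference ran from -0.28 to 0.30 (estimate 0.01, adjusted p = 0.975). C3 read -0.26, -0.72 and 0.04 against -0.58, -0.12 and -0.35, again overlapping, with an interval of -0.55 to 0.62 (estimate 0.04, adjusted p = 0.962). The sign of both estimates changed with the scaling of the arrays. C2, next to Cfb in the genome, did not overlap between the genotypes: 0.43, 0.91 and 0.73 against -0.09, 0.22 and -0.40, a difference of 0.78 ± 0.22 that missed the threshold (adjusted p = 0.516).

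The C1q chains had higher levels on all 3 intestine arrays labelled Irgm1-/- without passing the test. C1qa read -0.38, -0.27 and 0.22 against -2.10, -0.85 and -0.72, with wild type replicate 1 the lowest (1.08 ± 0.40, adjusted p = 0.661). C1qb differed by 1.05 ± 0.39 and C1qc by 0.60 ± 0.15 (adjusted p = 0.65 and 0.413). Serping1 differed by 0.53 ± 0.22 (adjusted p = 0.689). Groups did not overlap for 6 of the 9 genes (C1qa, C1qb, C1qc, C2, C4b and Serping1), each higher on the arrays labelled Irgm1-/-, where 13.6% of all genes tested were apart in that direction.

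Cfd was bright and variable in intestine, at 1.52, -0.58 and 1.64 against 0.22, 2.02 and 2.32. The genotypes overlapped, with replicate 2 the lowest of one group and replicate 1 the lowest of the other. Those 2 arrays also had the lowest mean level of the adipocyte genes, -3.38 and -3.34, against -2.26 to -1.34 on the other 4, and Adipoq differed by -1.02 ± 0.92 beside -0.66 ± 0.80 for Cfd (adjusted p = 0.701 and 0.765). The sign of both differences turned when the 8-week-old mice were left out, and whether fat in the samples accounts for it was not tested.

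In colonic macrophages no gene of the 9 passed the test, and the signs were mixed. limma called 0.0948% of 21095 genes, all lower on the arrays labelled Irgm1-/-, and at an unadjusted p under 0.05 it held 3 of the 9 (Serping1, C3 and Cfb) and 9.41% of all genes. Serping1 had levels of -1.58, 0.20 and 0.10 against 1.11, 1.62 and 1.75. Every array labelled Irgm1-/- was below every wild type array, with a difference of -1.92 ± 0.50 (adjusted p = 0.261), and the dimmer probe gave -1.97 ± 0.64. Within the first and the second slide the brighter probe differed by -2.05 and -1.65.

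C3 read -0.32, 1.30 and 1.23 against 1.54, 2.09 and 2.14 (-1.19 ± 0.47, adjusted p = 0.467), also without overlap. Cfb went the other way, with -1.33, -1.51 and -1.61 against -1.95, -2.26 and -2.78 (0.85 ± 0.28, adjusted p = 0.351). Groups were apart for these 3 genes, beside 14.3% of all genes tested. The C1q chains overlapped: C1qa read -4.27, -2.78 and -2.23 against -2.93, -0.44 and -0.95 (-1.65 ± 0.76, adjusted p = 0.595). In each genotype replicate 1, the array of the 8-week-old mouse, was the lowest for C1qa, C1qb and C1qc, and C1qc was not well above background on it.

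C1qb differed by -1.32 ± 0.72, C1qc by -1.34 ± 0.96 and C4b by -0.56 ± 0.49 in the macrophage arrays (adjusted p = 0.727, 0.872 and 0.938). C2 differed by 0.65 ± 0.54 and Cfd by 0.82 ± 0.72 (adjusted p = 0.917 and 0.939). With the replicate number as a block, C1qa, C1qb and Serping1 passed as lower (adjusted p = 0.0276, 0.0309 and 0.0238, limma), in a fit that called 5.05% of all genes and 4.28% as lower.

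Other transcripts moved with these values in the macrophage arrays. Of the pancreatic acinar genes, 10 were tested and 8 fell, beside 0.0948% of all genes. Of these 10 genes 5 were well above background on all macrophage arrays. Cela2a, an elastase, and Cpb1, a carboxypeptidase, were at least 784-fold and 201-fold higher in wild type. Both passed the detection filter only through the wild type arrays. Prss2, a trypsinogen well above background on 1 of 3 arrays labelled Irgm1-/-, differed by -10.86 ± 0.63 (adjusted p = 0.0021, limma). Of 10 fibroblast genes 0 passed the test, and their median difference was -1.62. Their mean level was -2.39 to -0.51 on the arrays labelled Irgm1-/- and 0.03 to 0.82 in wild type, without overlap, with Pdgfrb and Pdgfra, receptors of stromal cells, at -2.63 ± 0.64 and -2.12 ± 0.67 (adjusted p = 0.248 and 0.325). The part of this stromal and pancreatic RNA in the values of Serping1, C3 and the C1q chains was not tested.

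**Figure D2:**
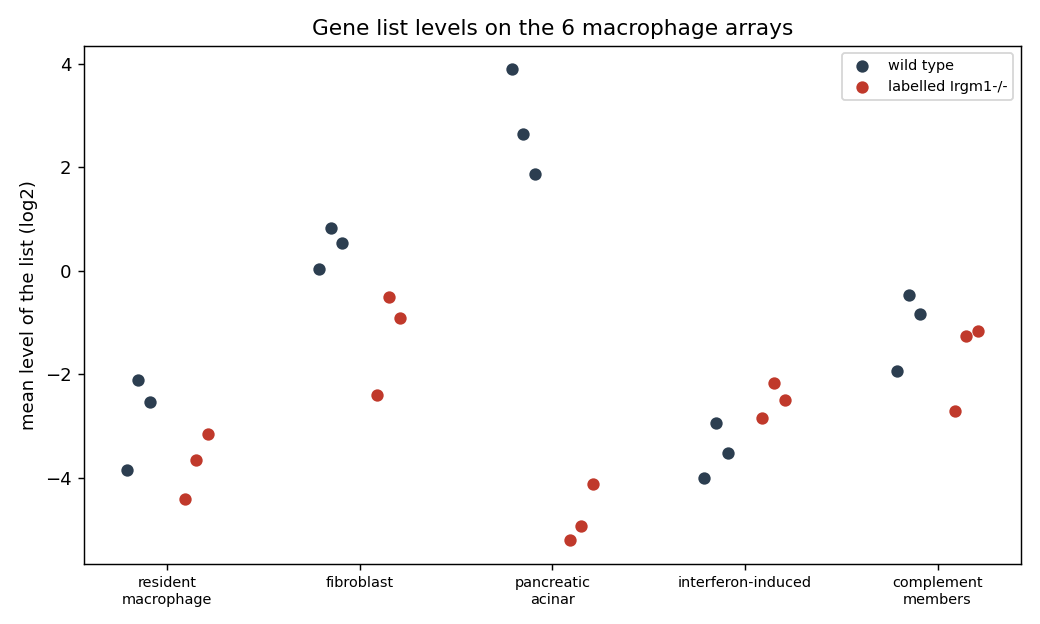
Mean level (log2) of 5 gene lists on the 6 macrophage arrays, 1 point per array. The pancreatic acinar list lies at 1.87 to 3.88 in wild type and -5.21 to -4.12 on the arrays labelled Irgm1-/-. The fibroblast list is also apart, and the resident macrophage and complement lists overlap. The interferon-induced list is apart the other way, at -4.0 to -2.94 in wild type and -2.84 to -2.17 on the arrays labelled Irgm1-/-.

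The genotype difference itself was compared between tissues in 1 fit of all 20 arrays. That fit treated intestine and macrophage arrays of the same animal as independent. An alternative with the animal as a random block estimated a correlation within animals of 0.064. Between salivary gland and intestine, Cfb was the gene of the 9 whose difference changed, by 3.39 ± 0.37 (adjusted p = 0.0001), where 0.473% of 10984 genes were called. For C3 the change was 1.84 (adjusted p = 0.145), for C2 1.58 (adjusted p = 0.436) and for C4b 1.01 (adjusted p = 0.686). The 3 C1q chains changed by 0.26 to 0.94 (adjusted p = 0.838 to 0.951), which does not show that they responded alike in both tissues.

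Between salivary gland and macrophages the difference was larger in the gland for 7 of the 9 genes, beside 8.05% of 10886 genes called. Serping1 changed by 3.26, C1qa by 3.31, C4b by 3.15, C3 by 3.07, C1qc by 2.89, C1qb by 2.63 and Cfb by 2.56 (adjusted p = 0.000668, 0.0107, 0.00112, 0.000771, 0.0444, 0.0294 and 0.000471). C2 (1.70, adjusted p = 0.0612) and Cfd (1.06, adjusted p = 0.849) did not pass. The C1qc call was lost without salivary gland replicate 1 or 2 labelled Irgm1-/-, any wild type gland array, macrophage replicate 1 labelled Irgm1-/- or macrophage wild type replicate 2 or 3, and the C1qb call without the same arrays other than wild type gland replicates 1 and 3. C2 passed without gland replicate 3 or macrophage replicate 3 labelled Irgm1-/-, or without macrophage wild type replicate 1. Between intestine and macrophages Serping1 passed (2.45, adjusted p = 0.0283), where 2.07% of 15921 genes were called. That call was lost without intestine replicate 1 or 3 of the arrays labelled Irgm1-/-, without intestine wild type replicate 1 or 2, and without macrophage wild type replicate 2 or 3. Without macrophage wild type replicate 1 the count rose to 5, and without macrophage replicate 2 or 3 labelled Irgm1-/- it was 2. Pancreatic RNA in the wild type macrophage arrays stands beside each comparison with macrophages, and its part was not tested.

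**Figure D3:**
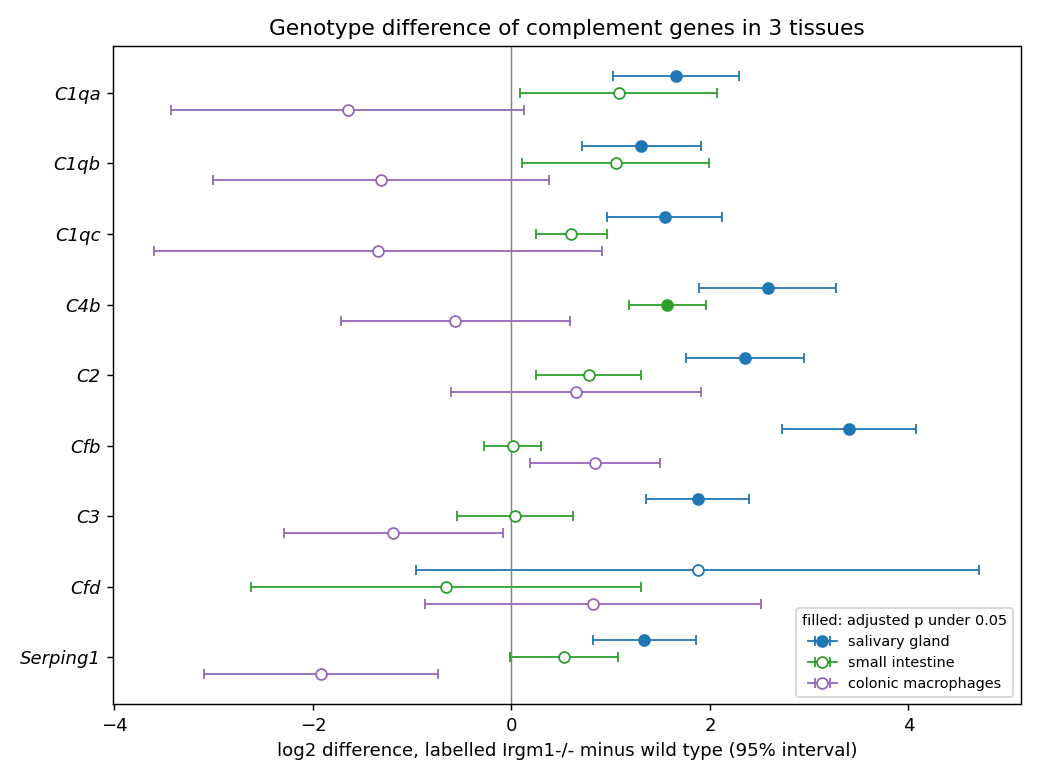
Genotype difference of each gene (log2, labelled Irgm1-/- minus wild type) with its 95% interval in 3 tissues; filled points have an adjusted p under 0.05 (limma). Cfb is at 3.40 in salivary gland and at 0.01 in intestine, and the C1q chains are above 0 in both whole tissues and below 0 in the macrophage arrays.

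The wild type levels set the starting point of these differences. Cfb was lowest in salivary gland (-4.42 ± 0.26, SD, n = 4), higher in macrophages (-2.33 ± 0.42, n = 3) and highest in intestine (0.29 ± 0.06, n = 3), where it lay above every salivary gland array of either genotype. The gland lay below intestine (-4.71, adjusted p = 1.32e-10), and macrophages lay below intestine (-2.62, adjusted p = 2.54e-07), while the step from gland to macrophages, 2.09 (adjusted p = 2.29e-06), was 0.39 and no longer called when arrays were scaled to their median. C2 had the same highest tissue: its level in intestine was above gland (-2.46 for gland minus intestine, adjusted p = 2.34e-05) and above macrophages (-2.20, adjusted p = 0.000106). Cfd was also highest in intestine, with gland at -4.79 (adjusted p = 0.00131) and macrophages at -4.52 (adjusted p = 0.00261) relative to it.

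C4b was lowest in wild type gland (-4.49 ± 0.33) and higher in intestine (-2.62 ± 0.08, adjusted p = 0.000264) and macrophages (-0.02 ± 0.71, adjusted p = 1.02e-08). C1qc was lower in macrophages than in gland (-2.57, adjusted p = 0.00104) and intestine (-2.72, adjusted p = 0.00102). These orders held under every scaling tried, except that C4b in macrophages and intestine no longer differed with arrays scaled to the median (0.08, adjusted p = 0.87). Counts called were 6 of 9 for gland against intestine, 6 for macrophages against gland and 8 for macrophages against intestine, and 69.5, 78.6 and 81.8% of all genes were called in these comparisons. The median of all genes lay 1.1 above gland and 1.34 above intestine in macrophages. Slides were numbered within each tissue, so whether tissues shared a slide is not given here. Tissue and slide cannot be told apart where a slide held a single tissue. The mean wild type levels in gland, intestine and macrophages were -0.03, -0.35 and 1.92 for C3, -0.14, -1.22 and -1.44 for C1qa, -0.29, -1.72 and 0.07 for C1qb and 0.24, -0.58 and 1.49 for Serping1. The order of tissues for C3, C1qb and Serping1 moved with the scaling, with signs that turned. For C1qa, macrophages minus intestine was -0.22, -2.74 with median scaling and 0.53 without macrophage wild type replicate 1. The 2 Serping1 probes differed by 0.69 to 3.78 over the arrays (r = 0.49).

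Resident macrophage genes were set beside the C1q chains. In salivary gland 4 of 11 tested macrophage genes rose (median 0.81), beside 2.16% of all genes. Among them Aif1 rose by 2.07 ± 0.37, Ms4a7 by 1.88 ± 0.27 and Mrc1, the mannose receptor, by 0.88 ± 0.18 (adjusted p = 0.0229, 0.0076 and 0.0445, limma). Mrc1 was well above background on 3 of 4 arrays labelled Irgm1-/- and 1 of 4 wild type arrays, its difference was 0.084 with normexp background correction (adjusted p = 0.785), and its call was lost in 16 alternatives. Aif1 was above background on 4 of 4 and 2 of 4, differed by 1.04 with normexp (adjusted p = 0.165) and was lost in 7. The count of 4 was 1 without wild type gland replicate 1, 2 or 4 and 2 without replicate 2 labelled Irgm1-/-, and 1 in the fit of all 20 arrays. In intestine 0 of 14 passed (median 0.48), with Fcgr1 at 1.07 ± 0.27 and Adgre1 at 0.90 ± 0.27 (adjusted p = 0.45 and 0.565). In macrophage arrays 0 of 13 passed (median -0.81), with Cd163, a scavenger receptor, at -2.07 ± 0.83 and Cx3cr1, the fractalkine receptor, at -1.58 ± 0.70 (adjusted p = 0.478 and 0.562).

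The mean of the 3 C1q chains was also taken relative to the mean of the macrophage list on each array. In salivary gland the gap was 3.86, 3.39, 2.96 and 2.87 on the arrays labelled Irgm1-/- and 2.60, 2.49, 2.70 and 2.20 in wild type, without overlap. In intestine it was 2.66, 2.88 and 2.87 against 2.05, 2.52 and 2.39, again without overlap. In the macrophage arrays it was -0.11, 0.86 and 0.63 against 0.38, 1.43 and 1.17, where the groups overlapped and every array lay below the whole tissues. Between macrophage arrays of the same replicate number, which deviated together, the gap on the array labelled Irgm1-/- differed by -0.49, -0.57 and -0.54 from that in wild type, lower in each of the 3 pairs, and this was not tested. The list mean includes genes at background. Of its 15 genes 6 were well above background on all gland arrays and 2 on none, while 14 were above it on all intestine arrays and 11 on all macrophage arrays. The part of genes at background in the gap, and that of macrophage number in the C1q levels, was not tested.

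**Figure D4:**
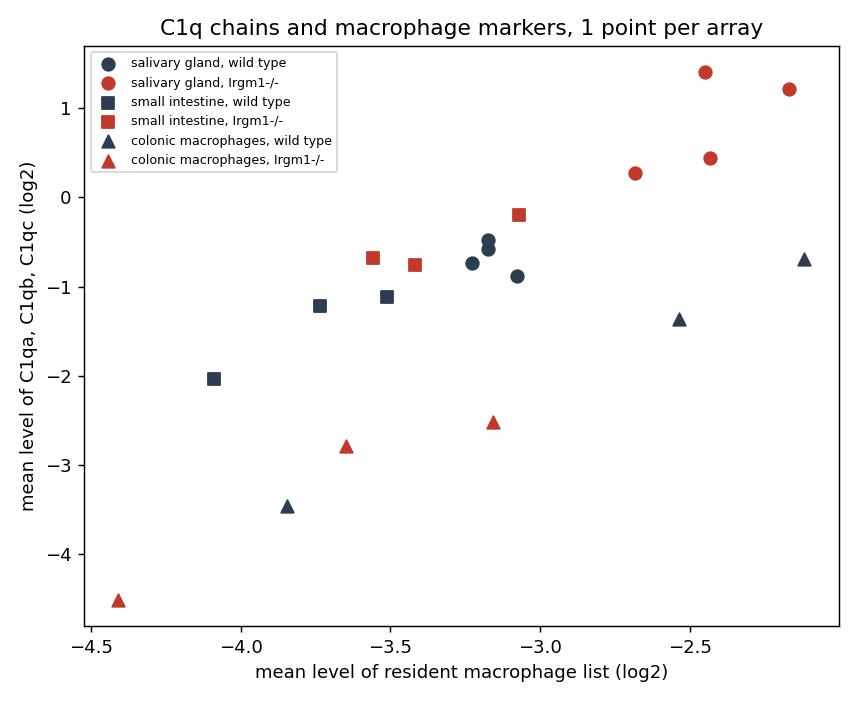
Mean level of C1qa, C1qb and C1qc (log2, vertical) against the mean level of the resident macrophage list (log2, horizontal), 1 point per array. Arrays of the whole tissues lie above the macrophage arrays at a like macrophage list level, and the salivary gland arrays labelled Irgm1-/- lie highest.

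Among the other complement genes Cfp and Itgax, described with their groups, passed the test in salivary gland, and no other passed in any tissue. Of the classical and lectin pathway genes 5 were tested in salivary gland and 0 passed (median 1.16), with the protease genes C1ra and C1rb, near-identical copies that a probe may not separate, at 1.28 ± 0.31 and 1.19 ± 0.39 (adjusted p = 0.0715 and 0.152). In intestine 0 of 8 passed (median 0.55), with C1rb at 1.68 ± 0.74 and C1ra at 0.92 ± 0.24 (adjusted p = 0.689 and 0.472). In macrophage arrays 0 of 9 passed (median -1.37), with the protease genes Masp1 and C1s1 at -2.58 ± 0.55 and -1.77 ± 0.42 (adjusted p = 0.245 and 0.248), both of which passed with the replicate block (adjusted p = 0.0181 and 0.0195). Terminal pathway genes were mostly at background: 5 of 7 were below it on all salivary gland arrays, and 0 of 2, 0 of 2 and 0 of 3 tested passed in gland, intestine and macrophages. C6, a pore component, differed by -0.52 ± 0.30 in gland and 0.59 ± 0.29 in intestine, and C7, which binds next to it, by -0.47 ± 0.29 in macrophages (adjusted p = 0.336, 0.689 and 0.806).

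Of the complement regulators 6 were tested in salivary gland and 1 rose, beside 2.16% of all genes. It was Cfp, the properdin that stabilizes the alternative convertase (1.13 ± 0.23, adjusted p = 0.0445, limma, a call lost in 13 alternatives). In intestine 0 of 12 passed (median 0.14), with Cd59a, which blocks pore assembly, at 0.52 ± 0.42 and Cpn1, which inactivates anaphylatoxins, at 0.49 ± 0.21 (adjusted p = 0.691 and 0.689). In macrophage arrays 0 of 11 passed (median -0.67). Clu, clusterin, stood at -3.27 ± 0.50 and Vtn, vitronectin, was not well above background on the arrays labelled Irgm1-/- and was at least 2.89-fold higher in wild type (adjusted p = 0.164 and 0.141). With the replicate block both passed (adjusted p = 0.0188 and 0.0214).

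Complement receptors followed a like count. In salivary gland 1 of 6 rose, beside 2.16% of all genes: Itgax, a chain of complement receptor 4 (1.93 ± 0.31, adjusted p = 0.0139, limma). Itgax was well above background on 3 of 4 arrays labelled Irgm1-/- and 1 of 4 wild type arrays, its difference was 0.75 with normexp background correction (adjusted p = 0.14), and its call was lost in 5 alternatives. In intestine 0 of 8 passed, with C3ar1, the C3a receptor, at 1.20 ± 0.52 and Itgam, a chain of complement receptor 3, at -0.88 ± 0.27 (adjusted p = 0.689 and 0.57), the latter 0.005 with the mean of its probes. In macrophage arrays 0 of 8 passed, with Itgax at -1.79 ± 0.66 and Cd93 at -1.13 ± 0.49 (adjusted p = 0.416 and 0.552), and both passed with the replicate block (adjusted p = 0.0208 and 0.0464). The chromosome 17 neighbours of C2, Cfb and C4b did not pass in any tissue (0 of 10, 0 of 12 and 0 of 12), with medians of 0.10, 0.17 and -0.10. Among them Cyp21a1, a steroid hydroxylase, stood at -0.56 ± 0.30 in gland, Skiv2l, a helicase, at 0.42 ± 0.23 in intestine and Tnxb, tenascin X, at -1.98 ± 0.52 in macrophages (adjusted p = 0.307, 0.689 and 0.261), and Tnxb passed with the replicate block (adjusted p = 0.0309).

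Interferon-induced genes rose in both whole tissues. Of the 26 on the array, 19 of the 19 tested rose in salivary gland (median 3.36), beside 2.16% of all genes. Intestine had 11 of 26 (median 1.58), beside 0.189% of all genes, and macrophages 0 of 24 (median 0.68). The mean list level in macrophages was -2.84 to -2.17 on the arrays labelled Irgm1-/- and -4.0 to -2.94 in wild type, without overlap. The intestine count of 11 was 0 with the replicate block, 1 without replicate 1 or 3 labelled Irgm1-/- or without wild type replicate 3, 3 without replicate 2 labelled Irgm1-/- and 2 without wild type replicate 2. It was 4 with normexp and 0 in females only or with both 8-week-old mice left out. Without the detection filter the gland count was 22 of 26. With the replicate block the macrophage count was 9 of 24, in a fit that called 5.05% of all genes. Oas2, which makes the activator of RNase L, was not well above background in wild type gland. It thus passed the filter there only through the arrays labelled Irgm1-/-, and in gland it was at least 12.5-fold higher on those arrays. Ifit3 and Oas1a rose there by 4.70 ± 0.33 and 4.46 ± 0.20 (adjusted p = 0.000181 and 2.3e-05). In intestine Ifi44, Oas2 and Usp18 rose by 3.63, 3.62 and 2.91 (adjusted p = 0.0017, 0.00434 and 0.00837), calls lost with the replicate block (adjusted p = 0.106, 0.106 and 0.144). The Oas2 call was also lost without intestine replicate 1 or 3 labelled Irgm1-/- or wild type replicate 3, and the Usp18 call without any intestine array other than wild type replicate 1. In macrophages Oasl2 and Oas2 stood at 2.79 ± 0.49 and 2.51 ± 0.42 (adjusted p = 0.197 and 0.193) and passed with the replicate block (adjusted p = 0.0198 and 0.0182).

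Acute phase and NF-kB genes, another group often induced with C3 and Cfb, passed in no tissue (0 of 5, 0 of 13 and 0 of 12). Lcn2, lipocalin 2, stood at 1.82 ± 0.44 in gland (adjusted p = 0.0713, limma, called in 5 alternatives). Il1b went the other way there, at -1.03 ± 0.57 (adjusted p = 0.323, limma). Ccl2 and Saa3 stood at 1.41 ± 0.36 and 1.14 ± 0.24 in intestine (adjusted p = 0.443 and 0.346). Il6 and Icam1 stood at -1.664 ± 1.205 and -1.58 ± 0.48 in macrophages (adjusted p = 0.877 and 0.307). Of 9 monocyte and neutrophil genes 5 were below background on all gland arrays and 3 were tested, and the list's mean level overlapped between genotypes (-5.37 to -4.40 against -5.70 to -4.97). Plac8 rose by 3.35 ± 0.30 (adjusted p = 0.000555). Ly6g, well above background on 4 of 4 arrays labelled Irgm1-/- and 0 of 4 wild type arrays, was at least 3.27-fold higher on the former.

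The genes with levels most like 4 of the members were listed after the mean of each tissue was subtracted, by Pearson correlation over 20 arrays among 10599 genes, as a description in which arrays share genotype and scale. C1qa was followed most closely by C1qb (r = 0.989), Mpeg1 (0.981) and Tyrobp (0.969). For Cfb they were Plac8 (0.987), H2-Q2 (0.981) and H2-K1 (0.973), for C3 Thy1 (0.944), S100a4 (0.94) and Rgs10 (0.934), and for Serping1 Axl (0.983), Ptgs1 (0.973) and Col18a1 (0.972). Among the members themselves the C1q chains followed each other at r = 0.936 to 0.989. Cfb followed C2 at 0.844 and C4b at 0.753, and C1qa and Serping1 at 0.412 and 0.392. C3 followed Serping1 at 0.915 and C1qa at 0.852, and Cfd followed no other member above 0.41.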

How the data were processed

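Each sample's RNA (5 µg, Cy5) was hybridized to a single-colour Agilent array (design 026655, annotation mm9). Agilent Feature Extraction 11.5.1.1 read the spots, per the file headers. The deposited intensity values are linear and carry the scanner software's background subtraction, and the other columns mark spots as outliers, saturated or well above background, per the file headers. The authors' deposited value table also holds intensity values, with a normalization that no source states, and it served as an alternative. Of the non-control spots 0 were saturated, and 0.434% were outliers and left out.

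Spots were averaged per probe as log2, and the 75th percentile over the 8600 probes well above background on all 20 arrays was subtracted from each array. A gene was read from its probe with the highest mean, and tested where that probe was well above background on at least 4 arrays in salivary gland or 3 in the others. All 9 members passed in each tissue. limma 3.58.1 (R 4.3.3) was fitted to all genes of a tissue, and to the 6 group means of 20 arrays for differences between tissues, with Benjamini-Hochberg adjustment over all genes and a threshold of 0.05. Each mouse gave 1 array per tissue, and the number of arrays and the signal over background limit the precision. The main fit of 20 arrays had no term for the animals shared by intestine and macrophages. The fits were tested on simulated data. A bound for a gene not well above background in 1 group uses the lowest signal of any probe above it. RefSeq's tables named 27502 probes by accession and 404 by a synonym.

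Same-numbered samples deviated together in intestine (r = 0.236, 0.278 and 0.331) and macrophages (0.451, 0.242 and 0.624), with mixed signs in salivary gland (0.219, -0.112, -0.521 and 0.443). The replicate block is therefore given beside results in the first 2. The sample labels do not pair mice across genotypes. In intestine and macrophages, samples of the same number shared slide and age across genotypes. Alternatives covered background correction, scaling, probe choice, detection filter, slide and replicate blocks, a joint fit, females, and leaving out each array. The alternative without both 8-week-old mice was chosen after seeing the data. The members and gene lists were chosen with earlier results of these data known. All 9 members are reported. Of each list, up to 3 called genes with the largest change per tissue are named, otherwise up to 2 as values, and for 4 members the 3 genes most like them. Timd4 and Mrc1 are named besides, as the resident macrophage genes not tested in macrophages.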

Additional observations from a re-analysis of the deposited data

Results flagged for a closer look

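The genotype difference changed between tissues, by the test of the difference itself, for 9 pairs of gene and tissues. Cfb differed by 3.39 more in salivary gland than in small intestine. Against colonic macrophages the difference in salivary gland was larger by 3.31 for C1qa, 3.26 for Serping1, 3.15 for C4b, 3.07 for C3, 2.89 for C1qc, 2.63 for C1qb and 2.56 for Cfb. For Serping1 it was larger in small intestine than in colonic macrophages by 2.45. All are on the log2 scale. The wild type macrophage arrays, which held pancreatic transcripts, enter 8 of these 9, and the part of those transcripts was not tested. In salivary gland, where groups of 4 could be examined, none of the 9 genes had an array past Dixon's 95% critical value. Cfd did not pass it with wild type replicate 3 at -0.71 and the other 3 between -4.98 and -3.54. Groups of 3 were not examined.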

How the results depend on the processing

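Of 2649 values recomputed under the alternatives, 2374 kept direction and side of the threshold, 161 lost a call, 60 gained one and 54 changed sign. The causes were not tested. In salivary gland the count of 8 was 5 with arrays scaled to the median, 4 without the detection filter, 5 in the fit of all 20 arrays, 8 with the replicate block, and 4 to 8 without 1 array. The intestine count of 1 was 0 with normexp, quantile normalization, median scaling, the percentile over all probes or over probes chosen per tissue, the authors' table, no filter, the slide or replicate block, the fit of all 20 arrays, both 8-week-old mice left out, females only, and without any 1 array (0 to 0). The macrophage count of 0 was 3 with the replicate block and 1 in the fit of all 20 arrays. Between gland and intestine the count of 1 was 2 with the percentile over all probes. Between gland and macrophages it was 5 to 8 without 1 array. Between intestine and macrophages the count of 1 was 0 with median scaling and with no filter, 2 with the animal as a random block, and 0 to 5 without 1 array. For wild type macrophages against intestine the count of 8 was 5 with median scaling.

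Signs turned as follows in intestine by genotype. C3 was -0.034 with normexp, -0.018 with quantile normalization and with the authors' table, -0.29 with median scaling and -0.19 with either other percentile, and -0.14 to 0.24 without 1 array. Cfb was -0.12 with normexp, -0.32 with median scaling and -0.21 with either other percentile, and -0.021 to 0.062 without 1 array. Without the 8-week-old mice and in females only, Cfd was 0.31 and 0.12 and Adipoq 0.12 and 0.081, and Cfd was -1.31 to 0.06 without 1 array. Itgam was 0.0050 with the mean of all probes. The C2 change between intestine and macrophages was -0.094 (quantile), -0.27 (median) and -0.18 (percentile over all probes), and -0.35 to 0.61 without 1 array.

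In wild type, gland minus intestine was 0.054, 0.080 and 0.092 for C1qc (normexp, quantile, percentile over all probes), -0.0077 and -0.31 for Serping1 and -0.51 and -0.041 for C3 (median scaling, mean of all probes). Macrophages minus gland, with quantile, median and all-probe percentile, was -0.12, -1.34 and -0.86 for C1qb, -0.86, -1.44 and -0.95 for C2, and -1.05, -1.42 and -0.93 for Cfd, which was -0.097 with normexp. Serping1 was -0.45 there with median scaling. Without 1 array these ranged from -0.13 to 1.06 for C1qb, -0.22 to 0.74 for C2 and -0.29 to 1.13 for Cfd. Macrophages minus intestine with median scaling was -0.74 for C1qb, -0.25 for C3 and -0.46 for Serping1, and C1qa was -0.72 to 0.53 without 1 array. Signal over background limits Cfb and C4b in wild type gland and C1qc in macrophages.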
